A study of Zea mays with 14 samples.

Results

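UPRO models are one of 4 types of gene model that the typed table of this maize study sets apart, and they were taken here as all models whose type field reads UPRO. They numbered 24779 of 161415 typed models, or 15.4%, beside 53702 PRO, 25307 EVI and 57627 TE models, the last being transposable elements. What UPRO, PRO and EVI stand for is explained neither in the labels nor in the files. The biotype field of the same table reads protein_coding_unsupported for all 24779 UPRO models and protein_coding for all 53702 PRO models. Among EVI models 3837 carry the unsupported biotype and 1099 a transposon biotype.

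The plants were seedlings of the maize inbred line B73, harvested at 14 days and divided into shoots and roots. Shoots and roots were each profiled with 7 assays, 1 library per assay and organ: immunoprecipitation of chromatin with H3K4me3, H3K9ac, H3K27me3 and H3K36me3, McrBC digestion for DNA methylation, mRNA and small RNA. Each chromatin library came from pooled seedlings, and shoots and roots are whole organs that hold many cell types. There were no replicates, so no p-value is given, and the 95% Wilson intervals below cover counting error only. Models are not replicates of an organ.

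Gene models are commonly predicted from genome sequence by programs that look for open reading frames and splice signals, and some of the predictions are then backed by cloned transcripts or similar proteins. In a genome as rich in transposons as that of maize, predictions without such backing are common and are hard to tell from fragments of genes or of transposons. H3K4me3 and H3K9ac are usually found at the starts of active genes and H3K36me3 along transcribed genes, H3K27me3 is the mark of Polycomb repression, and McrBC cuts DNA that carries methylcytosine, which is dense in transposons. The mRNA was selected on oligo(dT) beads, which bind the poly(A) tail at the 3′ end of messages.

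Each model of the typed table has 1 read or more. The table gives a span on a contig of a sequenced clone, the covered length, the number of covered blocks and the coverage summed over shoot and root. Every coverage value was a whole multiple of 35 bases, the read length, so that coverage divided by 35 is given below as reads. Over all typed models this came to 45411655 reads. A covered block is a run of bases with reads and is not an annotated exon.

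UPRO models were short and thinly covered. Their median span was 1040 bp (quartiles 531 and 1882 bp), against 2120.5 bp for PRO and 1160 bp for EVI models. Their median covered length was 70 bp (quartiles 35 and 141 bp), against 542 bp for PRO and 540 bp for EVI models. The covered share of the span was 7.43% (3.49 to 16.5%) in UPRO models, 29.97% in PRO models and 43.0% in EVI models. The median number of covered blocks was 2 in UPRO models, 7 in PRO models and 6 in EVI models. Mean depth, the coverage divided by the covered length, had a median of 1.01 in UPRO models (quartiles 1 and 2.02), 4.18 in PRO models and 5.09 in EVI models. The EVI models thus had nearly the span of the UPRO models and several times their coverage.

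Single-read models made up 36.3% of UPRO models (9003 of 24779, interval 35.7 to 36.9%). The share was 7.55% in PRO models (7.33 to 7.78%), 4.48% in EVI models (4.23 to 4.74%) and 50.7% in TE models (50.3 to 51.1%). The median UPRO model had 2 reads, the median PRO model 75 and the median EVI model 87. Models with 10 or more reads were 23.1% of UPRO models (22.6 to 23.6%), 76.9% of PRO models and 80.6% of EVI models. In the number of reads UPRO models lay between TE models and the other types and nearer to TE models.

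**Figure D1:**
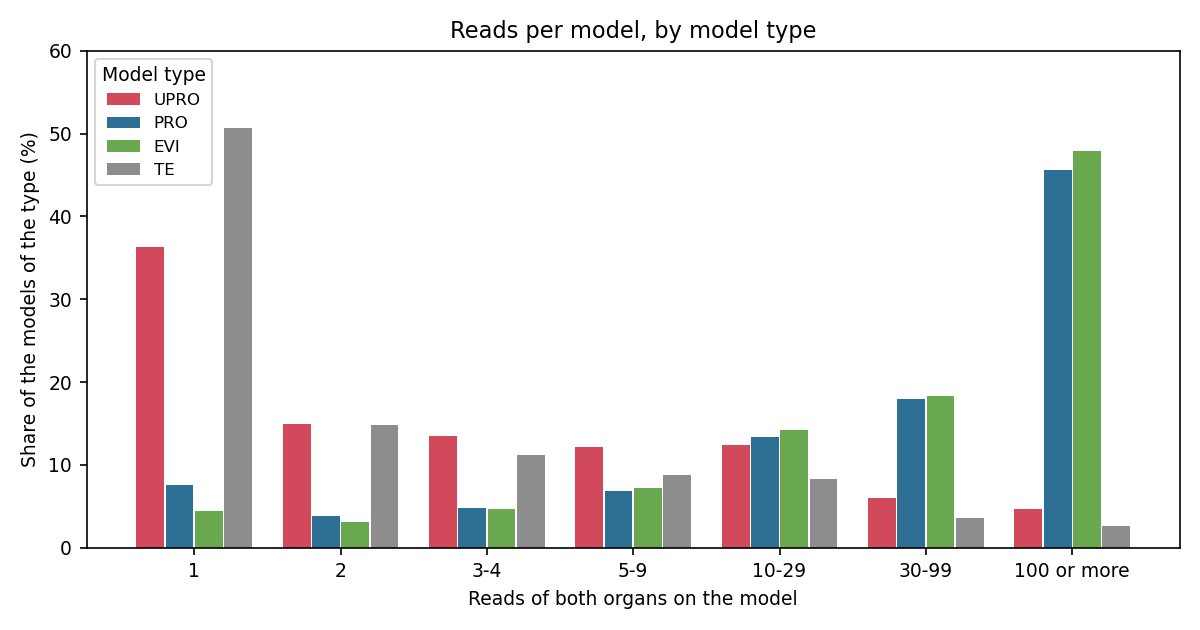
Share of the models of each type (y axis, percent) by the number of reads of both organs (x axis, classes of reads), one bar per type. UPRO models peak at 1 read (36.3%) as TE models do (50.7%), whereas 45.6% of PRO and 48.0% of EVI models lie in the class of 100 or more reads, against 4.67% of UPRO models.

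UPRO models had the larger share of single reads in each of the first 5 span classes, with intervals apart from those of PRO and EVI models. Below 500 bp the share was 40.8% of 5616 UPRO models (39.5 to 42.1%), 12.3% of PRO models (11.2 to 13.4%) and 12.0% of EVI models (11.03 to 13.03%). From 500 to under 1000 bp it was 38.7% of UPRO models (37.5 to 39.9%), 9.99% of PRO models and 6.13% of EVI models. From 1000 to under 2000 bp it was 37.6% of UPRO models (36.4 to 38.7%), 8.69% of PRO models and 2.79% of EVI models. Up to 2000 bp the share in UPRO models thus hardly moved with span. From 2000 to under 5000 bp the share was 28.6% of UPRO models (27.4 to 29.8%), 5.71% of PRO models and 0.587% of EVI models. It was 14.1% of 397 UPRO models from 5000 to under 10000 bp (11.02 to 17.9%), against 6.04% of PRO and 0.645% of EVI models. Of the 9 UPRO models of 10000 bp or more, 1 had a single read, too few to set beside the other types.

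**Figure D2:**
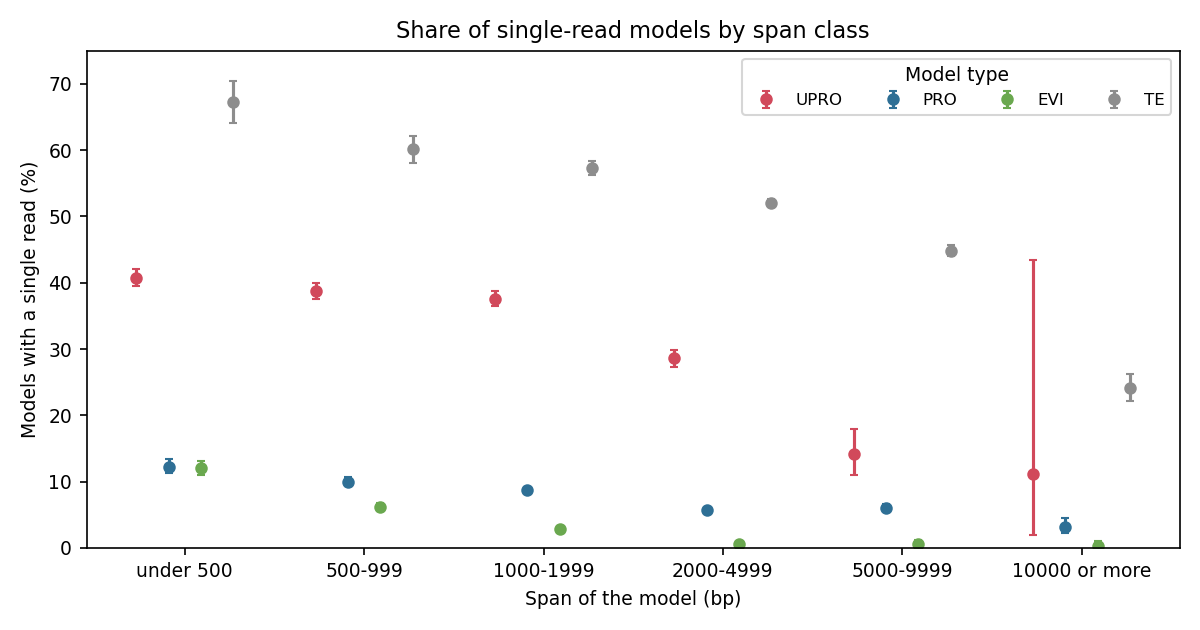
Share of models with a single read (y axis, percent) in 6 span classes (x axis, bp), points by model type with 95% Wilson intervals as bars. UPRO models lie between TE models above and PRO and EVI models below in each of the first 5 classes; the interval of the 9 UPRO models of 10000 bp or more is wide.

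With PRO and EVI models weighted to the span classes of UPRO models, the differences stayed. Single-read models were then 36.3% of UPRO, 9.17% of PRO and 5.25% of EVI models, a difference of 27.2 percentage points to PRO (26.5 to 27.8) and 31.1 to EVI (30.4 to 31.8). Median mean depth was 1.01 in UPRO, 3.70 in PRO and 4.59 in EVI models. The median covered share was 7.43% in UPRO, 36.9% in PRO and 45.8% in EVI models. More than 1 covered block was seen in 50.2% of UPRO models, 79.9% of PRO models and 84.6% of EVI models. TE models weighted in the same way had a single read in 59.0% and more than 1 block in 31.2%. On both of these measures UPRO models stood between TE models and the other types at like span.

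The EVI models with the unsupported biotype are the models that share the biotype of UPRO models under another type. Weighted to UPRO spans, 7.55% of them had a single read, against 36.3% of UPRO models. They had 10 or more reads in 68.8% of cases, against 23.1% of UPRO models. The type field thus split models of 1 biotype into sets with different coverage. This set was added to the comparison after the data were seen.

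At like numbers of reads the differences in covered share and in blocks were small. When PRO and EVI models were weighted to UPRO models by span and reads together, the median covered share was 7.43% in UPRO, 7.88% in PRO and 8.86% in EVI models. Weighted by reads alone, 50.2% of UPRO models had more than 1 block, against 55.6% of PRO and 52.4% of EVI models. The remaining differences in blocks were 5.40 percentage points below PRO (interval of the UPRO minus PRO difference -6.12 to -4.68) and 2.19 below EVI (-3.08 to -1.30). They lay outside the counting error.

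UPRO models of like reads were more often covered in a single block than PRO models, while at the lowest reads they stood level with EVI models. At 2 reads the share with 1 block was 38.1% in UPRO (36.6 to 39.7%), 30.6% in PRO and 37.7% in EVI models (34.4 to 41.2%), and at 3 to 4 reads it was 22.0%, 14.3% and 21.8%. At 5 to 9 reads it was 14.0% in UPRO (12.8 to 15.3%), 6.36% in PRO and 10.6% in EVI models (9.32 to 12.1%). Comparisons by reads alone are not of like span. With 2 reads the median span was 1019 bp in UPRO, 1585.5 bp in PRO and 593 bp in EVI models. Among models with exactly 2 reads and a span of 1000 to under 2000 bp, the reads lay in 1 block in 35.05% of 1090 UPRO models (32.3 to 37.9%), 28.7% of 623 PRO models (25.3 to 32.4%) and 27.1% of 129 EVI models (20.2 to 35.4%). The intervals of the PRO and of the EVI models both overlap that of the UPRO models, the former only at its edge. Where the 2 reads lay in separate blocks, the median gap between them was 251 bp in UPRO, 310.5 bp in PRO and 377.5 bp in EVI models. Among models with 100 or more reads, 21.8% of 1157 UPRO models had a single block (19.5 to 24.3%), against 4.74% of PRO models (4.48 to 5.01%) and 7.09% of EVI models (6.64 to 7.56%). These UPRO models had a median span of 1141 bp, and the PRO and EVI models of that class had medians of 2802 and 2303 bp. This last comparison is thus not one of like span either.

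Coverage of UPRO models leaned less to the 3′ end than that of PRO and EVI models. In models of at least 1000 bp with 10 to under 30 reads, the 10% of the span at the 3′ end held 10.1 ± 0.487% of the coverage of a UPRO model (mean ± SE over 1760 models). It held 16.1 ± 0.290% in 5081 PRO models, 19.2 ± 0.566% in 1218 EVI models and 9.89 ± 0.293% in 4657 TE models. An even spread would give 10%. Block positions were read as counted from the 5′ end of the model, which was inferred and is not stated in the table. On plus-strand models, a set added after the data were seen and where this choice makes no difference, the values were 9.65 ± 0.692% in 851 UPRO, 15.9 ± 0.412% in 2493 PRO, 19.1 ± 0.824% in 583 EVI and 9.67 ± 0.420% in 2305 TE models. With 100 or more reads the values were 14.3 ± 0.841% in 623 UPRO models, 21.4 ± 0.125% in PRO models and 30.96 ± 0.208% in EVI models. Among models with 10 or more reads and no overlapping model it was 11.1 ± 0.381% in UPRO models, 19.6 ± 0.131% in PRO models and 18.2 ± 0.732% in EVI models. Single reads leaned to the 5′ end on UPRO models and less so on PRO models: 43.3 ± 0.758% of 4214 such reads lay in the 50% of the span nearest the 3′ end. That share was 46.8 ± 0.933% in 2831 PRO models, 58.9 ± 3.44% in 202 EVI models and 49.8 ± 0.302% in TE models. Standard errors here describe the spread over models within the pooled coverage of both organs.

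**Figure D3:**
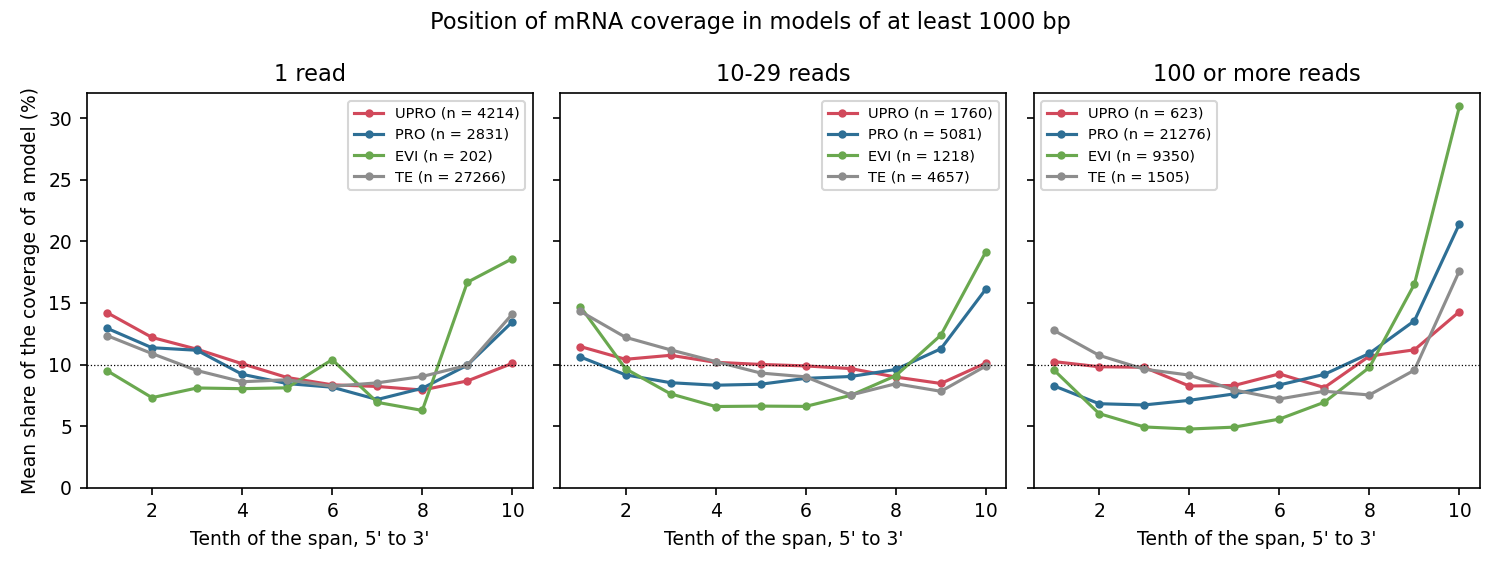
Mean share of the coverage of a model (y axis, percent) in each of 10 equal parts of the span from 5′ to 3′ (x axis), for models of at least 1000 bp with 1 read, 10 to under 30 reads and 100 or more reads; the dotted line marks an even spread. With 1 read the last part holds 10.1% in UPRO, 13.5% in PRO, 18.6% in EVI and 14.1% in TE models; with 100 or more reads it holds 14.3% in UPRO, 21.4% in PRO, 30.96% in EVI and 17.6% in TE models.

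A few UPRO models held most of the reads of the type. UPRO models together had 1925444 reads, 4.24% of all reads on typed models. The highest model alone held 17.0% of the UPRO reads, the highest 10 held 50.3%, and the lower 90% of the models held 5.41%. The highest 10 held 6.04% of reads in PRO models, 6.17% in EVI models and 24.6% in TE models. Among the 3837 EVI models of the unsupported biotype, a smaller set, the highest 10 held 30.3% and the highest alone 13.6%. All 9003 single-read models together were 0.468% of UPRO reads. Means and sums over UPRO models therefore describe a handful of loci, and medians and shares describe the rest.

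The highest of these was AC198387.2_FG009, on contig 25 of its clone, bases 9191 to 11453 of the minus strand, with 327420 reads. Of its 4 covered blocks 1 of 712 bp held 99.99% of them, and the other 3 shared the remainder. AC196015.3_FG011, on contig 30 of its clone, bases 3984 to 5091 of the plus strand, had 255570 reads and the highest mean depth of any UPRO model, 18034. Its block of 318 bp held 99.99% of the reads. AC186510.3_FG002 (contig 40, bases 6793 to 7092, minus strand) was covered end to end in 1 block of 300 bp with 60024 reads. These 3 loci were not joined to the organ tables, so their shoot and root shares are not given. The sources do not say how reads that match several places were treated, and the table does not name what these loci encode.

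Other UPRO models of high coverage were spread over many blocks. AC202034.3_FG013 (contig 21, bases 28674 to 34457, minus strand) had 49578 reads in 11 blocks over 68.3% of its 5784 bp. AC204398.3_FG024 (contig 12, bases 15537 to 17940, plus strand) had 40506 reads in 11 blocks over 55.8% of its span. The UPRO models with the most blocks were long and of moderate depth: AC211324.2_FG011 had 54 blocks over a span of 9636 bp at a mean depth of 5.40, and AC204853.2_FG023 had 52 blocks over 9672 bp at 4.91. The pattern of AC202034.3_FG013 and AC204853.2_FG023 is thus unlike that of the loci whose reads pile up in 1 block.

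The spans of UPRO models ran from 45 to 14901 bp. The longest, AC205254.2_FG004 (contig 11, bases 14078 to 28978, plus strand), had 165 reads in 24 blocks that covered 9.67% of it. The second, AC193380.4_FG003, had 151 reads over 3.14% of 14534 bp. The shortest, AC212370.2_FG020, had a single read on 45 bp, and AC210951.2_FG003 had 3 reads on 47 bp. A model of this size can hardly hold more than 1 block of 35 bases, so the blocks and covered share of the shortest models are bounded by their length. Only 39 UPRO models, 0.157%, were covered from end to end, against 0.460% of PRO and 0.450% of EVI models.

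UPRO models mostly stood alone. Of them 95.6% overlapped no other typed model (interval 95.4 to 95.9%), against 69.5% of PRO, 12.4% of EVI and 96.9% of TE models. A UPRO model was the sole typed model of its contig in 30.1% of cases (29.6 to 30.7%), against 16.1% of PRO, 2.00% of EVI and 33.5% of TE models. Where it had a neighbour on the contig and no overlap, the median gap to the nearest one was 3242 bp, against 2085 bp for PRO, 628.5 bp for EVI and 3701 bp for TE models. That neighbour was a TE model in 38.2% of cases (37.4 to 38.9%), a PRO model in 33.1% and another UPRO model in 21.0%. For PRO models the nearest neighbour was a TE model in 29%. In its setting on the contig, as in its reads, the type lay closer to TE than to EVI models. Contigs end where the clone assembly breaks, so gaps are measured within contigs only.

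The 444 UPRO models that shared at least 50% of their span with another model on the same strand had more reads. The partner was an EVI model in 380 and a UPRO model in 64. Of these 444, 12.6% had a single read (9.84 to 16.02%) and the median was 13 reads, against 37.5% and 2 reads in UPRO models without any overlap. The other types differed in the same way. With such an overlap 1.17% of PRO, 3.47% of EVI and 11.2% of TE models had a single read. Without any overlap it was 10.3%, 13.4% and 52.0%. In all, 502 UPRO models, 2.03%, overlapped a model on the opposite strand, and some of them also overlapped one on the same strand. In opposite-strand overlaps of 300 bp or more, over all types, 62.6% of the bases covered in either model were covered in both. Block positions were counted here from the 5′ end. Counted from the lower coordinate the share was 39.7%, and the 5′ count was taken for all position values because it gave the higher one. The table gives no strand of the reads.

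The gene tables of shoot and root give mRNA and marks per gene but neither types nor coordinates, so that UPRO models had to be paired with genes by their values. Pairs by summed coverage and covered length that allowed a single match gave 158 UPRO models. After the data were seen it was found that such pairs run in the same order in the typed table and in the gene numbers, and requiring at least 5 neighbouring pairs in that order raised the pairs to 28735 of 36465 genes with mRNA in both organs, among them 1151 UPRO models. Of the 158 UPRO pairs of the first set 101 were also in the second, against 2960 of 3598 pairs over all types. That these are the same pairs is fixed by the method, since a gene with a single match has no other candidate. Along the gene numbers the 28735 pairs fell into 15 runs of a single type each. The order requirement drops pairs that stray from their neighbours, so these runs can follow in part from the method. Runs were not examined in the single-match pairs. The 1151 UPRO models are 4.65% of the type with 43.9% of its reads, and their lowest mean depth was 3.23, because the organ tables list no mRNA below a mean depth of 2.55 in shoot and 2.53 in root. The values for shoot and root therefore describe well-covered UPRO models only.

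Among UPRO models paired with a gene that had listed mRNA in both organs, most values in shoot and root lay within 2-fold. The pairing leaves out genes listed in 1 organ alone. By the placing from gene order described further on, 56.3% of the UPRO genes with listed mRNA were listed in both organs, against 75.9% of PRO genes. Placed stretches begin and end at genes listed in both organs, so these shares partly follow from the method. The reads of the paired UPRO models summed to 345692 in shoot and 500162 in root, and a few models led the root sum. The log2 ratio of shoot over root had a median of -0.13 (quartiles -0.69 and 0.44), against -0.10 over all 36465 genes. At least 4-fold higher in shoot were 53 UPRO models, or 4.60% (3.54 to 5.97%), where 4.41% of all genes with mRNA in both organs were. At least 4-fold higher in root were 55, or 4.78% (3.69 to 6.17%), where 4.21% of all genes were. Both shares were near those of all genes. Within 2-fold were 72.3% of UPRO pairs (69.6 to 74.8%) and 75.1% of all genes.

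The organ difference was large in several of the most abundant loci. AC213764.2_FG007 (contig 65, bases 5400 to 5774, minus strand) had 6463 reads in shoot and 76367 in root. AC212742.2_FG010 (contig 125, bases 3263 to 3856, minus strand) had 8344 reads in shoot and 44985 in root, in 1 block over its whole 594 bp. Both were several times higher in root. AC205509.2_FG022 had 44 reads in shoot and 13263 in root. In the other direction, AC211645.2_FG001 (contig 32, bases 1075 to 2465, plus strand) had 23687 reads in shoot and 196 in root, and AC194247.3_FG013 had 9605 in shoot and 97 in root. AC202034.3_FG013 had 20772 reads in shoot and 28806 in root, and AC204398.3_FG024 had 19483 and 21023, so that these loci of 11 blocks differed by less than 2-fold. AC211645.2_FG001, with its large difference, had 8 blocks. With a single library per organ these ratios have no replicate check, and in whole organs fewer cells of a type and less RNA per cell cannot be told apart.

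The chromatin of the abundant UPRO loci was uneven. AC204398.3_FG024 had H3K4me3 over 1431 bp (shoot) and 504 bp (root), H3K9ac over 1057 bp in shoot alone and H3K36me3 over 2759 bp (shoot) and 834 bp (root). AC202034.3_FG013, AC213054.2_FG007 and AC211645.2_FG001 had none of the 5 marks in either organ. AC213764.2_FG007 had methylated DNA over 2023 bp in shoot and none in root, and no histone mark. AC212742.2_FG010 had methylated DNA over 1128 bp (shoot) and 1602 bp (root). The methylated lengths of these last loci exceed their spans of 375 and 594 bp. AC196068.3_FG028 and AC196068.3_FG029, neighbours on 1 clone with 948 and 652 reads in shoot and 5386 and 10624 in root, had H3K27me3 in shoot over 1666 and 1475 bp, and in root over 0 and 575 bp. Active marks were also longer in shoot on both: H3K4me3 lay over 1577 and 717 bp in shoot and was absent in root, and H3K9ac lay over 994 and 1118 bp in shoot and over 282 and 0 bp in root. Marks of both kinds were thus present in shoot, where the reads were fewer.

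Of the 124 paired UPRO models with 1000 or more reads, 39 had none of the 4 histone marks in either organ, 31.5% (23.9 to 40.1%). The share was 9.96% of 4376 PRO pairs (9.11 to 10.9%) and 9.80% of 2713 EVI pairs (8.74 to 10.98%). Comparisons within a class of reads are not of like span. With 1000 or more reads the median span was 1361.5 bp in UPRO, 3335 bp in PRO and 3166 bp in EVI pairs. With 100 to under 1000 reads it was 1109, 2705 and 1964 bp. Among those covered in more than 1 block it was 26.9% of UPRO pairs (18.3 to 37.7%), 9.76% of PRO pairs and 8.75% of EVI pairs. H3K4me3 in shoot marked 59.7% of these 124 UPRO models, 78.7% of the PRO pairs and 80.7% of the EVI pairs. DNA methylation in shoot marked 10.5% of them (13 models, 6.23 to 17.1%), 3.15% of the PRO pairs and 3.06% of the EVI pairs. With 100 to under 1000 reads there was no such excess over PRO pairs: the shares were 3.22% of UPRO, 3.42% of PRO and 2.31% of EVI pairs in shoot, and 1.38%, 3.22% and 1.71% in root. UPRO pairs with 100 to under 1000 reads had H3K4me3 in shoot in 50.8% of 435 models, against 64.7% of PRO and 60.5% of EVI pairs. Below 100 reads the values were 28.5% in 592 UPRO pairs (25.1 to 32.3%), 37.8% in PRO pairs and 30.1% in EVI pairs. The order against EVI pairs depended on span. Below 500 bp H3K4me3 marked 52.0% of 304 UPRO pairs in shoot (46.4 to 57.5%), 61.6% of PRO pairs and 26.2% of EVI pairs (23.5 to 29.1%), and in root 46.1%, 52.4% and 20.3%. The median reads of these pairs were 79.5, 159 and 89. From 2000 to under 5000 bp it marked 34.7% of UPRO pairs in shoot (29.2 to 40.7%), 66.7% of PRO pairs and 76.7% of EVI pairs. In H3K4me3, UPRO pairs thus lay below PRO pairs in these classes of reads and span, and above EVI pairs among the shortest.

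Since the runs of pairs are each of 1 type, genes lying between 2 neighbouring pairs of the same type were placed in that type by gene order. Only pairs at most 150 gene numbers apart were used, and the step was added after the data were seen. This gave 32058 UPRO, 50809 PRO and 20773 EVI genes, whose types are inferred and not recorded. Stretches where pairs lay further apart were left out, so the values below describe the parts of the runs with pairs close together. The UPRO run from gene number 42577 to 83625 held 406 pairs, and the PRO run from 127230 to 186787 held 14655. Per gene number passed, 40.0% of the UPRO genes (39.5 to 40.5%) had a typed model with at least 1 read, against 77.6% of PRO and 87.0% of EVI genes. The UPRO models described above are by this count a minority of the UPRO predictions, namely those with any read at all. Listed mRNA in at least 1 organ was found for 6.56% of the UPRO genes (6.30 to 6.84%), 46.8% of PRO and 59.2% of EVI genes. Of the UPRO genes listed, 56.3% were listed in both organs (54.2 to 58.4%), 22.2% in shoot alone and 21.4% in root alone. In both organs were listed 75.9% of the PRO and 77.7% of the EVI genes. Each placed stretch begins and ends at a pair, and pairs are drawn only from genes listed in both organs. Of the placed UPRO genes 1185 were listed in both, beside 1151 paired UPRO models. These shares therefore partly follow from the method and cannot be read as a trait of the types.

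Active marks were scarce on the UPRO genes placed by order. H3K4me3 marked 7.06% of them in shoot (6.78 to 7.34%) and 5.14% in root, against 40.3% and 32.3% of PRO genes and 48.7% and 39.1% of EVI genes. H3K9ac marked 7.61% in shoot and 3.35% in root, against 38.3% and 20.2% of PRO genes. H3K36me3 marked 2.77% in shoot and 3.33% in root, against 19.9% and 24.2% of PRO genes. H3K27me3 was also rarer, at 1.39% in shoot and 0.580% in root, against 5.44% and 1.93% of PRO genes. DNA methylation was the exception: it marked 5.85% of UPRO genes in shoot (5.59 to 6.11%), 4.53% of PRO and 2.05% of EVI genes, and in root 5.11%, 3.84% and 1.65%. At least 1 of the 5 marks was present in shoot on 15.2% of UPRO genes, 50.7% of PRO and 57.5% of EVI genes. Some marked genes repeated all mark values of an earlier gene: 19.3% of 6326 UPRO, 33.4% of 27858 PRO and 9.09% of 12427 EVI genes. The shares and intervals here and in the next paragraph count such repeats as separate genes.

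UPRO genes with listed mRNA carried the active marks far more often than those at 0. In shoot H3K4me3 marked 38.1% of 1653 UPRO genes with listed mRNA (35.7 to 40.4%) and 5.37% of 30405 at 0 (5.13 to 5.63%). In root it marked 30.01% of 1636 and 3.81% of 30422. H3K36me3 in shoot marked 18.5% of those with mRNA and 1.91% of those at 0. DNA methylation in shoot was equal, at 5.81% (4.78 to 7.04%) and 5.85% (5.59 to 6.12%). Among genes with listed mRNA in shoot the share with H3K4me3 was 38.1% in UPRO, 64.0% in PRO and 60.8% in EVI genes. Among genes at 0 in shoot it was 5.37% in UPRO, 23.9% in PRO and 34.9% in EVI genes. A gene at 0 in the organ tables is below their listing depth and is not shown to be silent.

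**Figure D4:**
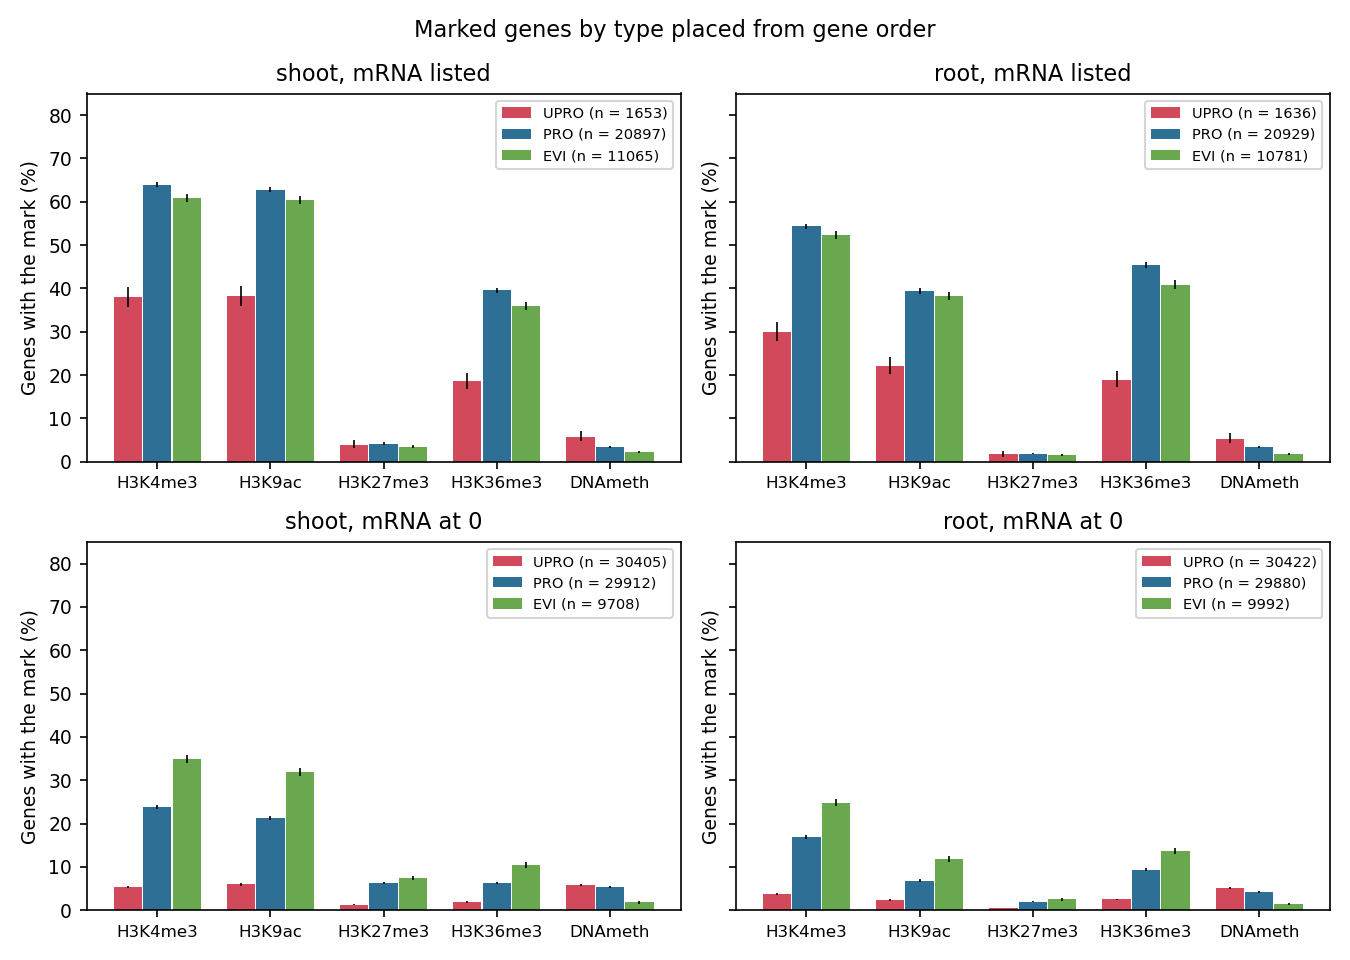
Share of genes with each mark (y axis, percent, with 95% Wilson intervals) in shoot (left) and root (right), for genes with listed mRNA (top) and genes at 0 (bottom), bars by type as placed from gene order. UPRO genes with mRNA carry H3K4me3 in 38.1% in shoot and 30.01% in root and those at 0 in 5.37% and 3.81%; DNA methylation in UPRO genes is near 5 to 6% in all 4 panels.

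UPRO models lay on 11995 of the 15510 clones with a typed model, 77.3%, with a median of 2 and at most 10 per clone. Among the other models of its clone, the median UPRO model had 37.5% TE models (quartiles 25.0 and 54.5%), against 30.8% for PRO, 22.2% for EVI and 40.0% for TE models. By clone, the median TE share was 36.4% in 11987 clones with UPRO models and 50% in 3501 without, among clones that also had a peak. Over all models together the shares were 34.3% and 41.5%. UPRO models are themselves in the denominator: with them left out of it, the shares over all models were 42.3% on clones with and 41.5% on clones without UPRO models, and the direction turned. Clones with UPRO models held more models, with a median of 10 against 7. Within clones of 6 to 10 models the TE share of models other than UPRO was 56.0% with and 49.7% without UPRO models, and within clones of 11 to 15 models it was 44.0% and 37.2%. The UPRO models count towards these numbers of models.

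Clones with UPRO models had slightly more peaks per 100 kb of clone than clones without, but not at like numbers of models. The extent of a clone was taken as its largest peak end. H3K4me3 peaks numbered 2.16 per 100 kb on clones with UPRO models and 1.97 on clones without in shoot, a ratio of 1.10 (interval from Poisson counting 1.07 to 1.12). In root they numbered 1.73 and 1.61, a ratio of 1.08. The ratios were 1.10 in shoot and 1.08 in root for H3K9ac, and 1.07 and 1.06 for H3K36me3. H3K27me3 gave 1.01 in shoot and 0.989 in root, with intervals that include 1. Within groups of clones of like model number the ratio fell below 1 for the 8 histone lists, from 0.952 for H3K9ac in shoot to 0.882 for H3K36me3 in root. The higher density on clones with UPRO models was therefore not seen at like numbers of models. That number counts the UPRO models themselves, so clones of a group are not alike in PRO and EVI models. In clones of 6 to 10 models, PRO models were 28.4% and EVI models 4.88% with UPRO models, against 40.8% and 9.58% without. Ratios at like numbers of PRO and EVI models were not tested.

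DNA methylation peaks in root behaved otherwise. They numbered 1.69 per 100 kb on clones with UPRO models and 1.48 on clones without, a ratio of 1.145 (1.12 to 1.17), and 1.13 (1.10 to 1.16) within groups of like model number. At least 1 such peak was found on 72.4% of clones with UPRO models and 64.8% of clones without. It was found on 64.8% of clones with 0, 69.1% with 1, 71.7% with 2, 77.8% with 3 and 77.6% with 4 or more UPRO models. Such a rise was not particular to DNA methylation. For H3K9ac in root the share of clones with a peak was 68.5% with 0 and 80.3% with 4 or more UPRO models. Clones with more UPRO models were also longer and held more models. Their median extent was 145 kb with 0 and 164 kb with 4 or more, and their median number of models 7 and 12. In shoot the density was 2.49 on clones with and 2.51 on clones without, a ratio of 0.993 with an interval that includes 1.

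**Figure D5:**
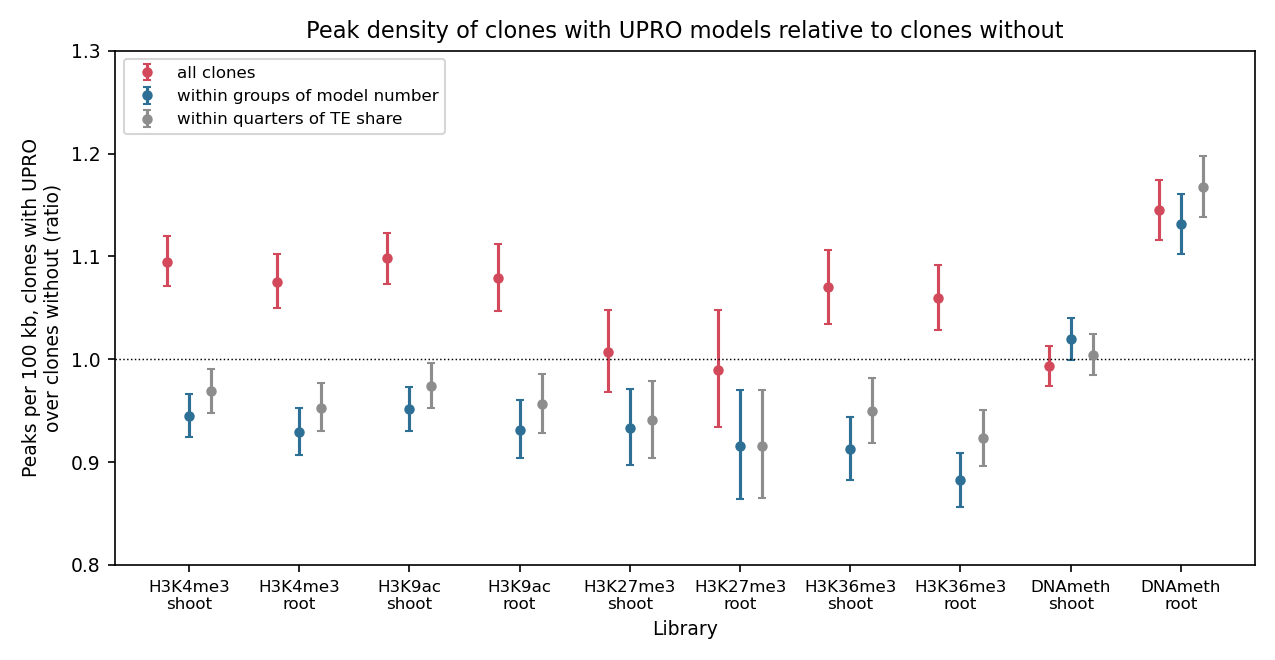
Ratio of peaks per 100 kb on clones with UPRO models over clones without (y axis, starting at 0.8) for each of 10 chromatin libraries (x axis), for all clones, within groups of model number and within groups of TE share; bars are 95% Poisson counting intervals and the dotted line marks 1. Histone ratios lie above 1 for all clones except 0.989 for H3K27me3 in root, and below 1 within groups, while DNA methylation in root stays at 1.13 to 1.17.

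On clones with exactly 1 UPRO model, peaks of active marks followed the reads of that model. H3K4me3 in shoot numbered 1.86 per 100 kb on 1851 clones whose UPRO model had 1 read, 2.03 on 1986 with 2 to under 10 reads and 2.44 on 1046 with 10 or more. H3K36me3 in root numbered 1.00, 1.12 and 1.43 in the same order. DNA methylation in shoot numbered 2.48, 2.44 and 2.49. The TE share over all models fell along the same classes, from 39.8% through 38.1% to 33.6%, and the share of PRO and EVI models rose, so the part of the UPRO model itself in these peaks was not tested. At clone level a peak cannot be tied to the model, and the sequences of the models are not shown because no genome was used here.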

How the data were processed

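The deposited coverage of models and genes is signal, summed base coverage, which the authors made from mRNA reads, per the file headers. The deposited positions, block numbers and peak bounds are other values and were used as given. The sources name no aligner, peak caller, annotation or genome build. The 2 small RNA libraries were not used. Columns were taken through the sample titles, and 0 columns of the organ tables had no sample.

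Spans, block positions (taken as counted from the 5′ end of the model, by the agreement of overlapping models on opposite strands) and coverage were read per model. Types were compared in 6 span classes and after weighting to the classes of UPRO models. Coverage was spread evenly over each block for the position profiles. In 799 near-identical pairs of models on the same strand, 7.76% had equal coverage and a median of 56.7% of the bases covered in either model were covered in both, so it is not known whether reads of a shared span were entered for both. Pairing, weighting and overlap steps were tested on simulated data. Genes with listed mRNA were denser along the order there than among UPRO genes, so the pairing of UPRO models was not tested at their own density. With 10 ordered neighbours required, UPRO pairs fell from 1151 to 377 and PRO pairs from 18094 to 16723. Named models are the 10 highest in coverage, and 5 each by mean depth (10 or more reads), blocks, longest and shortest span; organ and mark values were added for paired models with the most reads, chosen after their values were seen. The members, classes and comparisons were chosen with earlier results of these data known. Python 3.11.15, pandas 2.3.3, numpy 2.4.6, SciPy 1.17.1 and matplotlib 3.10.9 were used.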

Additional observations from a re-analysis of the deposited data

Results flagged for a closer look

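The ratio of peak density on clones with UPRO models over clones without pointed in opposite directions in the organs for 2 marks. In shoot the DNA methylation ratio was 0.993, and in root it reached 1.145. The H3K27me3 ratio stood at 1.007 for shoot and at 0.9895 for root. The difference between the organs was not tested, since each organ has 1 library. For DNA methylation the opposite directions held for density over all clones only. For H3K27me3 they also held with peaks of at least the median length, at 1.04 in shoot and 0.985 in root. Both of those intervals include 1. Per clone the DNA methylation ratios were 1.06 in shoot and 1.22 in root and the H3K27me3 ratios 1.08 and 1.06, and within groups of model number they were 1.02 and 1.13 for DNA methylation and 0.933 and 0.916 for H3K27me3, so that both organs then pointed the same way. The intervals of both H3K27me3 ratios and of the DNA methylation ratio in shoot include 1.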

How the results depend on the processing

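No paired analysis was possible because every assay has 1 library per organ. The comparisons of UPRO with PRO and EVI models in reads, depth, covered share and blocks kept their direction under every alternative run, and those of clones did not. Of 78 alternatives 19 stayed within the counting interval, 46 moved outside it and 13 reversed a value whose interval lay apart from no difference. In classes of reads the gaps narrow by construction, since models with few reads cannot have many blocks, and of the others the cause was not tested.

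Counting at most 2 reads as single gave UPRO minus PRO and EVI differences of 37.2 and 42.4 percentage points, and leaving out overlapping models gave 25.5 against PRO. UPRO mean depth over PRO and EVI was 0.395 and 0.341 with more than 1 read, 0.0677 and 0.0437 as coverage over span, and 0.305 and 0.198 without overlapping models. The covered share over PRO and EVI was 0.277 and 0.238 with more than 1 read and 0.943 and 0.839 with span and reads together. The share with more than 1 block differed by -9.38 and -10.4 with more than 1 read and by -5.40 and -2.19 in classes of reads.

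The TE share of clones with minus without UPRO models was 0 in the median and 0.793 over all models, a reversal, with UPRO models left out of the denominator. It was -6.49 and -5.64 on clones with at least 5 models.

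Peak density ratios follow in the order H3K4me3, H3K9ac, H3K27me3, H3K36me3, each in shoot and then root. Per clone they were 1.17, 1.15, 1.173, 1.152, 1.08, 1.06, 1.14 and 1.13, and DNA methylation gave 1.06 and 1.22. Within groups of model number they were 0.945, 0.930, 0.952, 0.931, 0.933, 0.916, 0.912 and 0.882, which reversed the 6 lists other than H3K27me3, and DNA methylation gave 1.02 in shoot. Within groups of TE share, added after the data were seen, they were 0.969, 0.953, 0.974, 0.956, 0.941, 0.9161, 0.9496 and 0.923, reversed for the same 6 lists. Both kinds of group count the UPRO models themselves, so their clones are not alike in PRO and EVI models. The ratios whose intervals over all clones include 1 also changed side. H3K27me3 in shoot went below 1 within both kinds of group, with intervals of 0.897 to 0.971 and 0.904 to 0.978, and in root above 1 per clone (0.998 to 1.12). DNA methylation in shoot went above 1 in all 4 alternatives, with an interval apart from 1 per clone alone (1.04 to 1.08); within groups of TE share it was 1.004. With peaks of at least the median length of their list, the moved ratios were 1.03 and 1.026 for H3K4me3, 1.06 for H3K9ac in shoot, 1.032 for H3K36me3 in shoot and 1.02 for DNA methylation in shoot.

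UPRO models paired with genes numbered 158 by values alone, 49 by coverage alone, 1151 with gene order and 377 with 10 ordered neighbours, the last 2 added after the data were seen. Their share with H3K4me3 in shoot was 51.3%, 59.2%, 40.3% and 43.5% in that order. Depth limits every statement on models with 1 read, and the organ tables limit the rest to a mean depth above about 2.5.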
